A study of Homo sapiens with 4 samples.

Results

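The 34 genes described here are signalling proteins, cytoskeletal regulators and transcription factors that are best known from blood cells. The rule that selects them is a list of gene names with no threshold on any value, but the list was drawn up with earlier results of these samples known, so the counts of calls below describe the list and are not independent evidence of its direction. They are 34 of the 35189 gene identifiers that had splice junctions of their own in the deposited tables, and 31 of them were among the 10956 genes with at least 20 reads over both tables, the minimum for a comparison. Ribosome profiling, which sequences the stretches of messenger RNA that ribosomes shield from nuclease, was done on 4 samples of 2 established human cell lines. K562 derives from a patient with chronic myelogenous leukemia and resembles red cell precursors, and HepG2 derives from a liver tumor. Both were untreated as far as the labels say, apart from 100 µg/ml cycloheximide in the lysis buffer, an inhibitor that holds ribosomes on the message. The 2 samples of each line are pooled in 1 table of reads per splice junction, so every value below counts only footprints that span a junction, and none has a replicate check.

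In white blood cells, receptors at the surface pass their signal to tyrosine kinases of the SRC, SYK and TEC families, which phosphorylate adaptor proteins that gather lipases, lipid kinases and exchange factors. Phosphatases reverse these steps, and the actin skeleton is rebuilt downstream. RUNX, Ikaros, ETS, homeobox and basic helix-loop-helix factors set which of these genes a blood lineage uses. Several of the same factors also act in other organs, such as the homeobox factor HHEX in the liver.

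Unique reads were summed per gene and scaled to effective depths (TMM). The ratio of the lines was given an exact 95% interval from the binomial distribution, and a gene was called higher in a line when that whole interval lay past 2-fold. Intervals cover counting error only, and without molecular identifiers several reads may come from 1 molecule. Where a line had 0 reads, the fold was taken against a floor of 3 reads in its table and is written with "at least". Such a fold is set by the floor and lies above the lower bound of the exact interval (68.6 for VAV1, given below as 84.9), so it should not be ranked against the ratios of genes with 1 to 3 reads. Since these are bulk lysates, fewer cells with a transcript and less transcript or translation per cell cannot be told apart.

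Unique reads at junctions of a single gene came to 7222089 for K562 and 9607307 for HepG2. Red cell genes marked the K562 table, where 10 of 11 identity genes were higher in K562, and liver genes marked the HepG2 table, where 11 of 11 were higher in HepG2. Markers of most mature blood cell types had few reads in either line. In K562 and HepG2, 8 neutrophil granule genes had 2 and 0 reads together, 8 B cell genes 27 and 15, and 8 monocyte genes 107 and 41. Of the monocyte genes 1 was called higher in K562, and of 8 T cell genes 1 was called for each line. The T cell list had 254 K562 and 124 HepG2 reads. Of the K562 reads, 196 were from CD3D, while CD2, CD5 and CD247 were at 0. MS4A1, PAX5, CSF1R and CD163 were also at 0. The 8 megakaryocyte genes had 4691 K562 and 3879 HepG2 reads, of which THBS1, which many cell types make, gave 4565 and 3879. Another of them, ITGA2B, had 119 and 0 reads and was higher in K562, while GP9, GP1BA and PF4 were at 0. What part such cells have in the member values was not tested.

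Most members were read in K562 and hardly at all in HepG2. Of the 31 tested members, 26 were higher in K562, against 16.8% of all genes tested. HepG2 was higher for 3 members, PTPN6, INPP5D and CORO1A, against 21.9% of all genes, and RUNX1 and ETV6 were called for neither line. The median log2 ratio of K562 to HepG2 was 6.59 over the tested members and -0.01 over all genes. The member median falls at FYB1 (97 and 1 reads), ranked among folds that the floor sets, so its size is rough. No reads at all were found in HepG2 for 14 tested members (45.2%), against 4.41% of all genes, and 0 tested members lacked reads in K562, against 5.45%. Their summed reads made up 0.569% of the K562 total and 0.0183% of the HepG2 total. Of 285 member junctions with 10 or more reads, 283 (99.3%) lay in the direction of their gene, against 97.6% over all called genes, but this was fixed for the 14 members with 0 HepG2 reads, and the share gives no support to the calls.

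**Figure D1:**
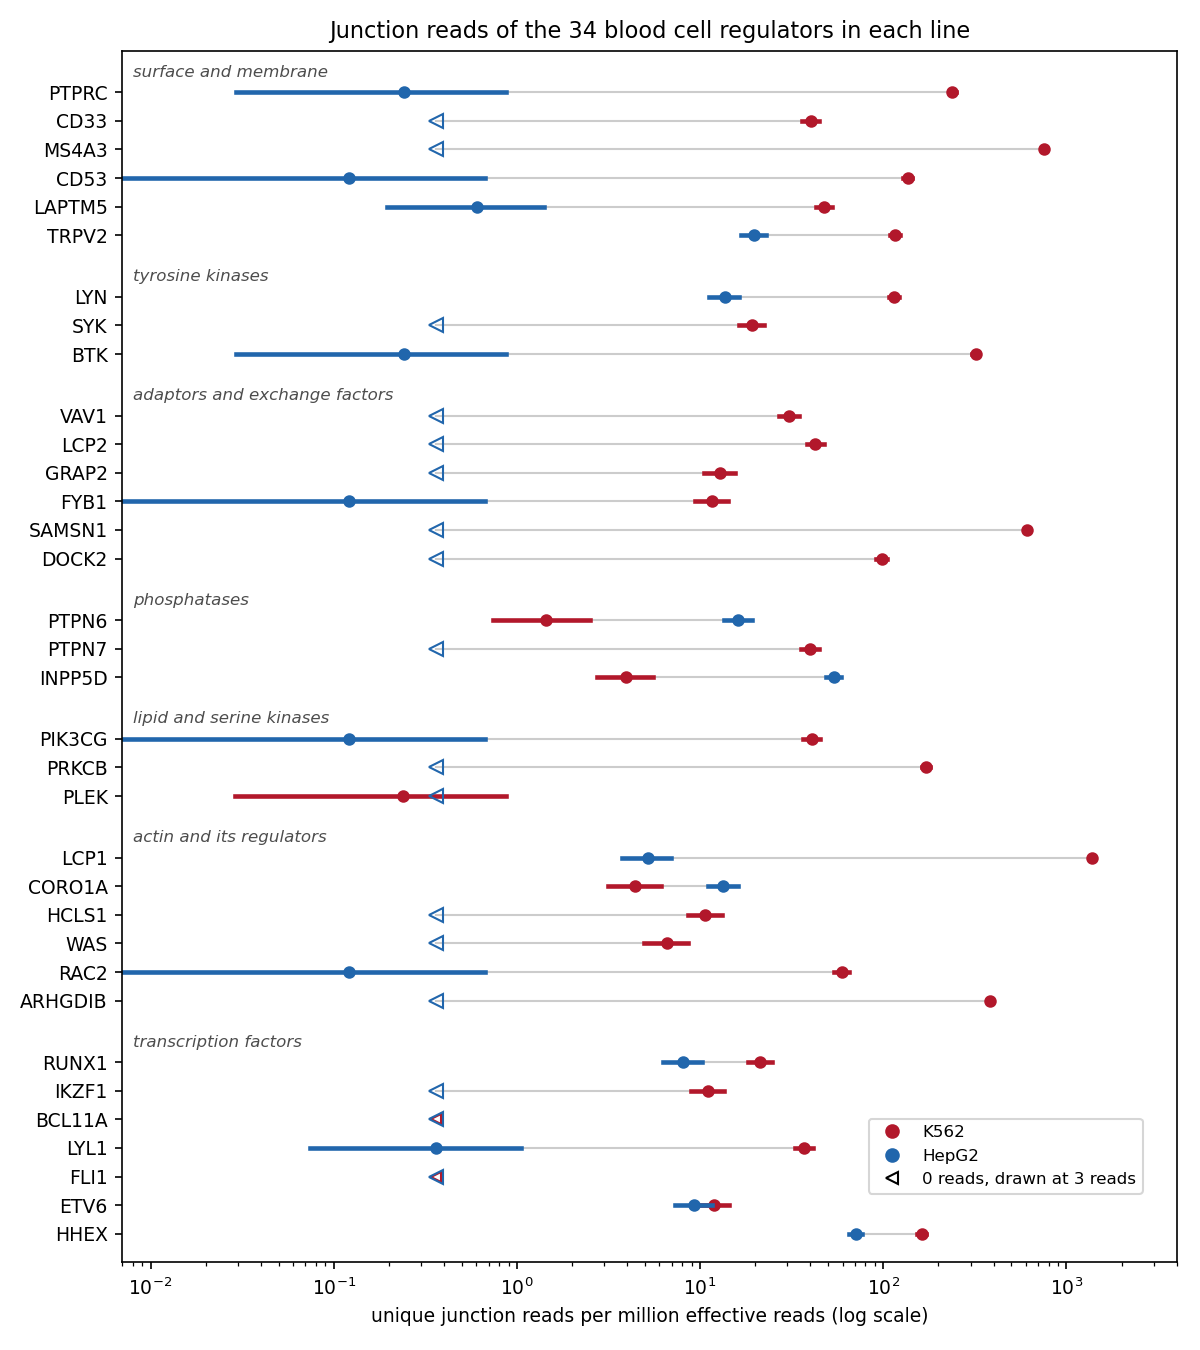
Unique junction reads per 1000000 effective reads (log axis) for each of the 34 genes, by role. Filled points are K562 (red) and HepG2 (blue), bars are exact 95% Poisson intervals, which are cut at the left edge for counts of 1, and open triangles are counts of 0 drawn at 3 reads. K562 lies to the right for most genes, and PTPN6, INPP5D and CORO1A lie the other way.

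All 6 surface and membrane genes were higher in K562. PTPRC (ENSG00000081237, chromosome 1, 198638457 to 198757476, GRCh38), the receptor phosphatase CD45 of all nucleated blood cells, had 1988 K562 reads against 2 from HepG2, a ratio of 989 (274 to 8180). MS4A3, a membrane protein of myeloid precursors, had 6303 and 0 reads, a difference of at least 2090-fold. CD53, a tetraspanin of leukocytes, had 1134 and 1 reads, a ratio of 1130 (202 to 44600). The 1 CD53 read of HepG2 lay in the 5′ untranslated region, so neither gene had a coding junction read there at this depth. CD33, a sialic acid receptor of myeloid cells, had 335 and 0, a difference of at least 111-fold. LAPTM5, a lysosomal protein that lowers antigen receptor levels, had 395 and 5 reads, a ratio of 78.6 (33.4 to 244). TRPV2, a cation channel, was the surface gene with the smallest difference, 970 against 163 reads and a ratio of 5.92 (5.01 to 7.04). HepG2 reads lay at 11 of the 12 coding junctions assigned to TRPV2 alone.

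PTPRC is spliced in forms that differ in alternative exons of the outer domain, and the form without them is called CD45RO. The junction that joins the exons on either side, on the + strand at chr1:198692374-198703297, is shown because it identifies that form. Here and below, 30 bases of the GENCODE release 29 transcript are given 5′ to 3′, with the end of the upstream exon in lower case and the start of the downstream exon in capitals.
PTPRC, alternative exons skipped: caccttcccccactgATGCCTACCTTAATG
It held 10 of the 12 K562 reads at its donor (83.3%, 51.6 to 97.9). The other 2 reads ran to 2 different alternative exons. At its acceptor the junction held 10 of 14 reads (71.4%, 41.9 to 91.6), and 3 and 1 reads came from alternative exons. So few reads give wide intervals, and both sites lay under the 20 reads set for the count of alternative splice sites.

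Whether MS4A3 reads lay before or within the coding sequence depended on the transcript taken. With a junction counted as coding when any transcript reads it so, 69.0% of the 6303 K562 reads lay at coding junctions. The junction on the + strand at chr11:60064319-60066950 is shown because it held 3614 of the 6303 reads (57.3%).
MS4A3, most-read junction: cccacaagaacatggATACAGAACAGTTTT
In the transcript whose junctions held the most reads, this junction lies 18 bases before the start codon and another, with 1886 reads, 75 bases before it. The 2 coding junctions of that transcript had 268 and 140 reads. A longer transcript reads the first of these junctions as coding, and an upstream coding exon of it was joined in 223 of 2136 reads at the shared acceptor (10.4%, 9.17 to 11.8). At a donor further upstream, 2 other coding junctions took 21 of 100 reads (21.0%, 13.5 to 30.3) and 11 of 100 (11%, 5.62 to 18.8). In CD33, 21 of 146 reads at a donor (14.4%, 9.13 to 21.1) skipped an exon through a junction that the annotation holds only in a noncoding transcript.

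The 3 tyrosine kinases were higher in K562. BTK (ENSG00000010671, chromosome X, 101349447 to 101390796), the kinase whose loss causes X-linked agammaglobulinemia, had 2661 K562 reads against 2 from HepG2, a ratio of 1320 (366 to 10900), and all 17 of its coding junctions were read in K562. SYK, which binds phosphorylated receptor tails, had 160 and 0 reads, at least 53.1-fold higher. LYN, a SRC-family kinase of myeloid and B cells, had 953 and 113 reads, a ratio of 8.39 (6.90 to 10.3). LYN was also read along its whole length in HepG2, at 11 of 11 coding junctions. It exists in a longer and a shorter form that differ in a stretch near the amino end, and the longer one took 16 of 60 K562 reads at the shared acceptor (26.7%, 16.1 to 39.7) and 3 of 4 in HepG2, too few to compare.

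All 6 adaptors and exchange factors were higher in K562, and together they had 6690 K562 reads and 1 HepG2 read. SAMSN1, an adaptor with SH3 and SAM domains, had 5057 and 0 reads, at least 1680-fold apart. DOCK2, which activates RAC in leukocytes, had 818 and 0, at least 271-fold higher, and all 51 of its coding junctions held K562 reads. LCP2, the adaptor SLP-76, had 355 and 0 and was at least 118-fold higher. These 3 genes span a wide range of levels, as given below. VAV1, an exchange factor phosphorylated by SYK-type kinases, had 256 and 0 reads, at least 84.9-fold higher, with reads at 25 of 26 coding junctions. GRAP2, which bridges SLP-76 to membrane adaptors, had 107 and 0, at least 35.5-fold higher. FYB1, another partner of SLP-76, had 97 and 1 reads, a ratio of 96.5 (16.9 to 3850).

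The phosphatases were split. PTPN7, which acts on MAP kinases in lymphoid and myeloid cells, had 333 K562 reads and no HepG2 reads, at least 110-fold higher in K562. The other two, which both damp receptor signals in blood cells, were higher in HepG2. INPP5D (ENSG00000168918, chromosome 2, 233059967 to 233207903), the lipid phosphatase SHIP1, had 33 K562 reads against 445 from HepG2, which was 13.5-fold higher (9.51 to 19.9). PTPN6 (ENSG00000111679, chromosome 12, 6946468 to 6961316), the tyrosine phosphatase SHP-1, had 12 against 134 reads, and HepG2 was 11.2-fold higher (6.21 to 22.3).

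Both HepG2-high phosphatases were read along the whole coding sequence. In HepG2, reads were found at 25 of 25 coding junctions of INPP5D and at 14 of 14 of PTPN6. The share of INPP5D coding reads in the first of 2 equal parts of the coding sequence was 59.9% (55.0 to 64.6) in HepG2 and 59.4% (40.6 to 76.3) in K562. PTPN6 has an upstream first exon known from epithelial cells and a downstream one known from blood cells, and the junctions of both are shown because they tell these starts apart, on the + strand at chr12:6946740-6951608 and chr12:6951521-6951608.
PTPN6, upstream first exon: gatgctgtcccgtggGTGGTTTCACCGAGA
PTPN6, downstream first exon: ccccaggatggtgagGTGGTTTCACCGAGA
The upstream junction had 5 HepG2 reads and 1 K562 read, and the downstream junction had 0 in both lines.

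INPP5D has a pair of neighbouring acceptors in frame with each other, at chr2:233122258-233125744 and chr2:233122258-233125747 on the + strand. They are shown because this was the only splice site with an alternative junction in use among members in HepG2.
INPP5D, upstream acceptor: ctgaggaggacacagTAGAAAGTGTCGTGT
INPP5D, downstream acceptor: ctgaggaggacacagAAAGTGTCGTGTCTC
In HepG2 the upstream acceptor took 18 reads and the downstream one 8 of 26 (30.8%, 14.3 to 51.8). K562 had 2 reads at the upstream acceptor and 0 at the downstream one.

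Of the lipid and serine kinase group, both genes with enough reads were higher in K562. PRKCB, protein kinase C beta, which acts below the B cell receptor, had 1425 K562 reads and no HepG2 reads, at least 473-fold higher in K562. PIK3CG, the phosphoinositide 3-kinase subunit driven by G protein-coupled receptors, had 340 and 1 reads, a ratio of 338 (60.3 to 13400). PLEK, a protein kinase C substrate of platelets, had 2 and 0 reads and was not compared.

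PRKCB ends in either of 2 final exons, which give the forms known as beta II and beta I. The junctions, on the + strand at chr16:24191231-24214657 and chr16:24191231-24219960, are shown because they separate these forms.
PRKCB, proximal final exon: tataagccaaaagctTGTGGGCGAAATGCT
PRKCB, distal final exon: tataagccaaaagctAGAGACAAGAGAGAC
In K562 the proximal exon of beta II took 358 of 382 reads (93.7%, 90.8 to 95.9) and the distal exon of beta I took 24 (6.28%, 4.07 to 9.20). PIK3CG had 3 alternative leader junctions in K562, with 32, 22 and 10 of 64 reads at their shared acceptor.

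Genes of the actin skeleton and its regulators were higher in K562 in 5 of 6 cases. LCP1 (ENSG00000136167, chromosome 13, 46125920 to 46211871), the actin bundler L-plastin, had the most reads of all members, 11446 from K562 against 43 from HepG2, a ratio of 265 (197 to 366). ARHGDIB, a GDP dissociation inhibitor of blood cells, had 3211 and 0 reads, at least 1070-fold apart. RAC2, the RAC form of leukocytes, had 494 and 1 reads, a ratio of 492 (87.8 to 19500). HCLS1, a cortactin relative phosphorylated by LYN, and WAS, the actin nucleation factor lost in Wiskott-Aldrich syndrome, had fewer reads. HCLS1 had 89 and 0 reads, at least 29.5-fold higher, and WAS had 55 and 0, at least 18.2-fold higher. CORO1A, an actin-binding coronin of leukocytes, was the exception, with 37 K562 reads against 111 from HepG2, which was 3.01-fold higher (2.06 to 4.5). That call was lost with total-read scaling, where the log2 ratio was -1.17, without its most-read junction (-1.33), with 99% intervals (-1.59) and with junctions at least 60 bases into the coding sequence (-1.57).

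The few LCP1 reads in HepG2 were gathered near the end of the coding sequence. The junction on the − strand at chr13:46134251-46142291 is shown because it held 20 of the 43 reads.
LCP1, most-read junction in HepG2: gcagctaatgagaagGTATACACTGAATAT
The next junction held 10 HepG2 reads. In K562 these 2 junctions had 1543 and 757 reads. Of coding reads, 40.1% (39.1 to 41.0) in K562 and 4 of 41 (9.76%, 2.72 to 23.1) in HepG2 lay in the first of 2 equal parts of the coding sequence. LCP1 was the only one of 8 members with enough reads in both lines whose shares differed by 20 points with intervals apart (12.5%, against 4.43% of all genes so compared), a rule that was added after the data had been seen.

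**Figure D2:**
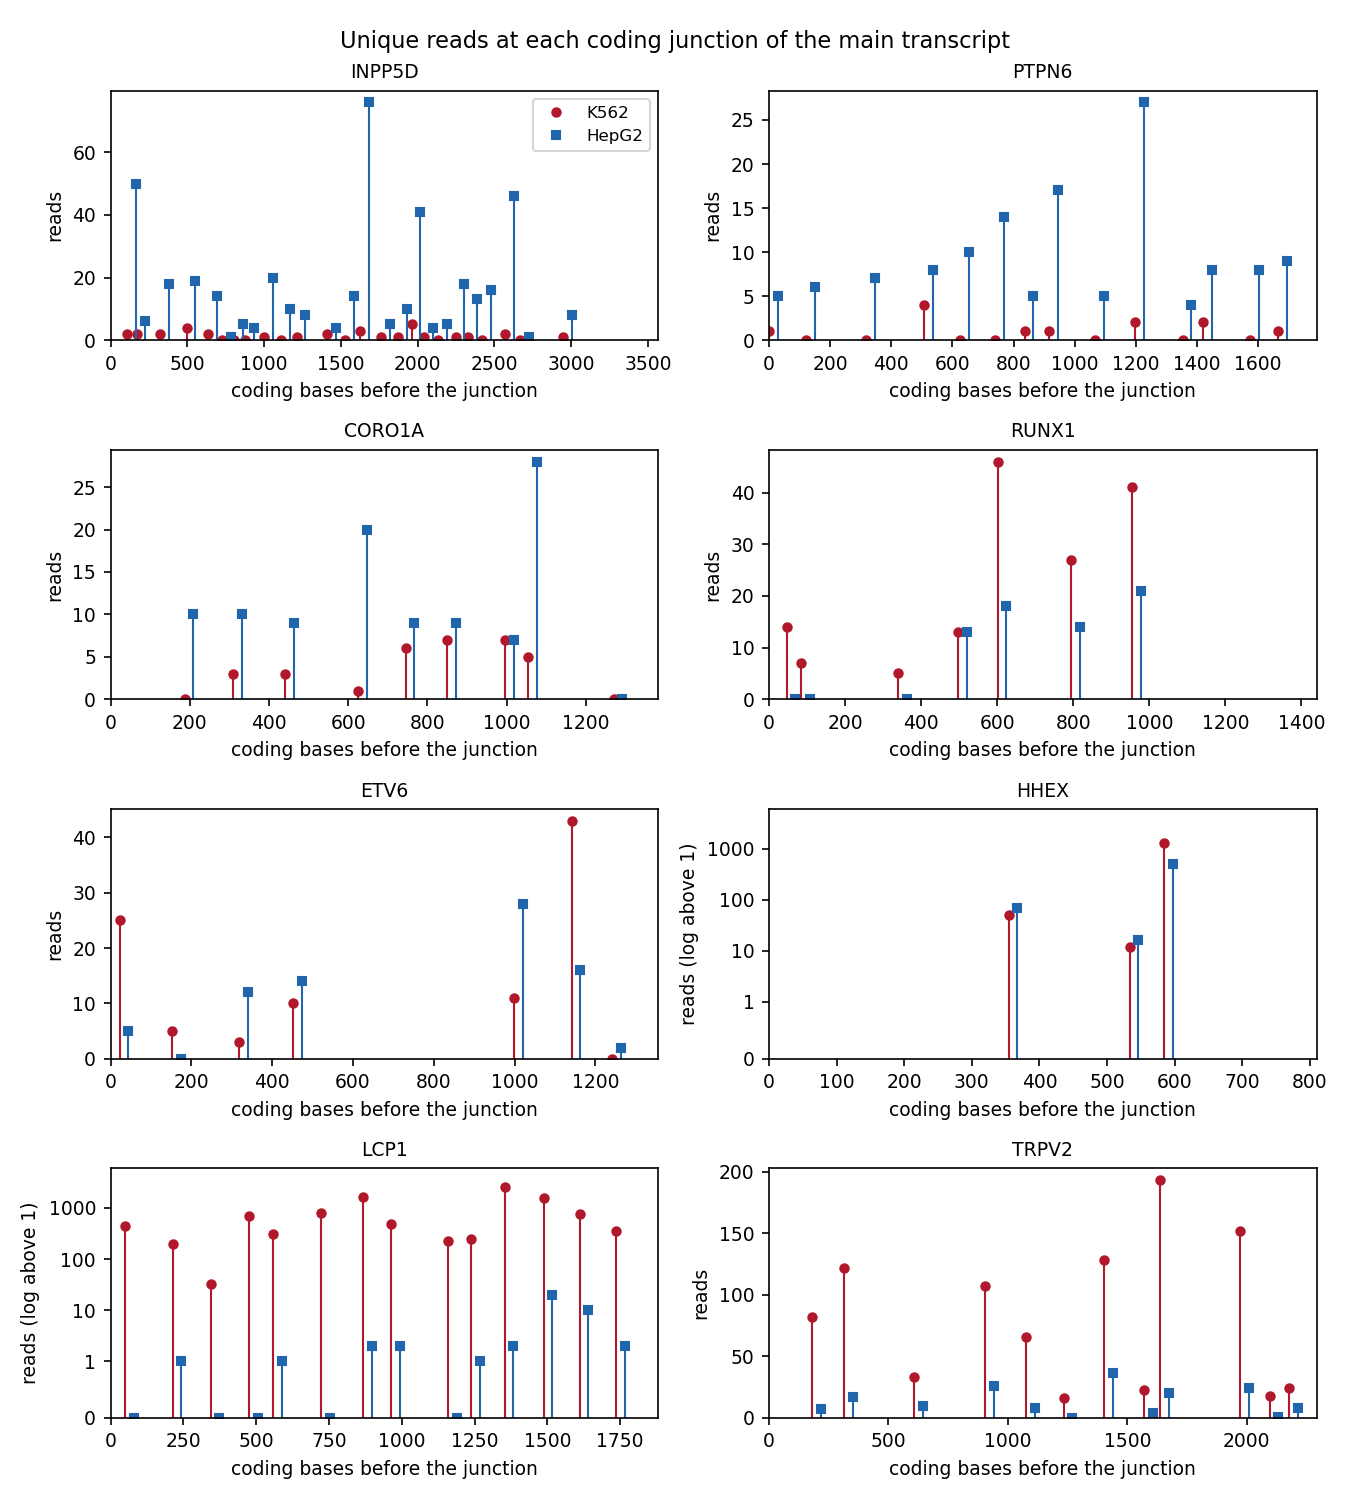
Unique reads at each coding junction of the main transcript (vertical axis, reads, on a log scale above 1 for HHEX and LCP1) against the coding bases before the junction, for 8 members read in both lines. Red circles are K562 and blue squares HepG2, drawn slightly to the left and right of their common position. INPP5D and PTPN6 carry HepG2 reads along the whole length, the HHEX difference rests on the last junction (1289 and 505 reads), and HepG2 reads of LCP1 gather at the end.

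Of the 7 transcription factors, 5 had enough reads, and 3 of these were higher in K562 and 2 neither, with a median log2 ratio of 1.40. IKZF1, the lymphoid and myeloid factor Ikaros, had 92 K562 reads and no HepG2 reads, at least 30.5-fold higher. LYL1, a helix-loop-helix factor of blood progenitors, had 308 and 3 reads, a ratio of 102 (34.6 to 498), and the 3 HepG2 reads lay in its 5′ untranslated region. ETV6, an ETS-family repressor, had 99 and 77 reads, a ratio of 1.28 (0.941 to 1.75), and was called for neither line. Its junctions did not all point the same way: K562 had 25 and HepG2 5 reads at the first coding junction and 43 and 16 at another, while 3 and 12, 10 and 14, and 11 and 28 were found at 3 junctions between them. BCL11A, a repressor of fetal globin genes, and FLI1, an ETS factor of megakaryocytes, had 0 reads in both tables and were not compared.

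RUNX1 (ENSG00000159216, chromosome 21, 34787801 to 36004667), a master factor of blood formation, had 178 K562 reads against 67 from HepG2, a ratio of 2.64 (1.99 to 3.56), just short of a call. It was called higher in K562 with scaling by total reads, where the log2 ratio was 1.82 in place of 1.40, and with a minimum of 100 reads (1.41). RUNX1 can start at a distal or a proximal promoter, and the junction that follows the distal first exons, on the − strand at chr21:34892964-35048841, is shown because it was read in one line only.
RUNX1, after the distal first exons: agtgcttcatgagagAATGCATACTTGGAA
Here K562 gave 14 reads and HepG2 0, and the untranslated junction before it had 24 and 0. The next 2 had 7 and 0 and 5 and 0 reads. From there on both lines were read, with 13 and 13, 46 and 18, 27 and 14, and 41 and 21 reads.

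HHEX (ENSG00000152804, chromosome 10, 92689951 to 92695646), a homeobox factor needed in both blood and liver development, had the highest HepG2 level of the members. Its 1353 K562 reads stood against 589 from HepG2, a ratio of 2.29 (2.07 to 2.52), a call for K562. The last of its 3 coding junctions, on the + strand at chr10:92692753-92694546, is shown because it carried that call.
HHEX, last junction: aggagactaaaacagGAGAACCCTCAAAGC
It held 1289 of the K562 reads (95.3%) and 505 of the HepG2 reads. The other 2 coding junctions had 51 and 12 K562 reads against 68 and 16 from HepG2. Without the last junction HHEX had 64 and 84 reads, and the log2 ratio turned from 1.19 to -0.35, with no call.

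Levels can be compared between genes when reads are divided by the number of coding junctions of the main transcript and given per 1000000 effective reads. On that scale the compared members in K562 ran from 87.6 (85.9 to 89.3) for LCP1 and 86.3 (84.0 to 88.7) for SAMSN1, whose intervals overlapped, down to 0.103 (0.0531 to 0.180) for PTPN6. By the mean, HHEX followed at 54.1, ARHGDIB at 43.9, MS4A3 at 24.5 and BTK at 18.1. The MS4A3 value rests on 2 coding junctions and leaves out the junction with 3614 reads, which a longer transcript reads as coding. The place of HHEX rests on its last junction, since the median over its coding junctions was 6.12 in K562 and 8.19 in HepG2. A middle group lay between 9.0 for LYN and 13.3 for CD53, with TRPV2 at 9.64, LYL1 at 10.4, PRKCB at 10.5 and RAC2 at 11.7. The adaptors other than SAMSN1 were low, with GRAP2 at 2.14, LCP2 at 2.13, DOCK2 at 1.92, VAV1 at 1.18 and FYB1 at 0.72, so that SAMSN1 stood apart within its role. In HepG2, only HHEX at 23.7 (21.8 to 25.6) exceeded 2.01 as a mean, the level of INPP5D, which was followed by TRPV2 at 1.62, CORO1A at 1.37, ETV6 at 1.33, LYN at 1.18, PTPN6 at 1.14 and RUNX1 at 1.14. The intervals of the last 5 overlapped one another.

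Some members had many reads before the start codon. In K562, 14.7% (14.3 to 15) of member reads lay at junctions of the 5′ untranslated region, against 6.47% over all genes. In HepG2 it was 0.967% (0.564 to 1.54) against 3.29%. Most of the 6021 such K562 reads came from MS4A3 (1952), ARHGDIB (1745) and LCP1 (1218). The members with the most HepG2 reads, HHEX and INPP5D, had 0 of 589 and 0 of 445 there. The pooled shares thus depend on which members each line read, which their intervals do not cover. Per gene, the K562 share reached 54.3% (52.6 to 56.1) in ARHGDIB, 43.5% (37.9 to 49.2) in LYL1, 41.0% (38.1 to 43.9) in CD53 and 31.0% (29.8 to 32.1) in MS4A3. It was 0 of 1425 reads in PRKCB and 0 of 970 in TRPV2. A gene whose transcripts have no junction before the start codon can only give 0, so these counts do not measure reading there. The member share rose to 27.5% when junctions annotated as both coding and untranslated were counted as untranslated, against 10.2% over all genes by that rule, and that of MS4A3 rose to 88.3%.

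Alternative splicing was counted at sites shared by several junctions of a member with 20 or more reads. An alternative junction was called in use when its share had an interval above 5%. This held at 6 of 71 member sites in K562 (8.45%, against 15.3% over all genes) and at 1 of 8 in HepG2 (12.5%, against 12.5%). Among 4 member sites read deeply enough in both lines, 0 differed by 20 points with intervals apart, against 3.12% of all such sites.

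**Figure D3:**
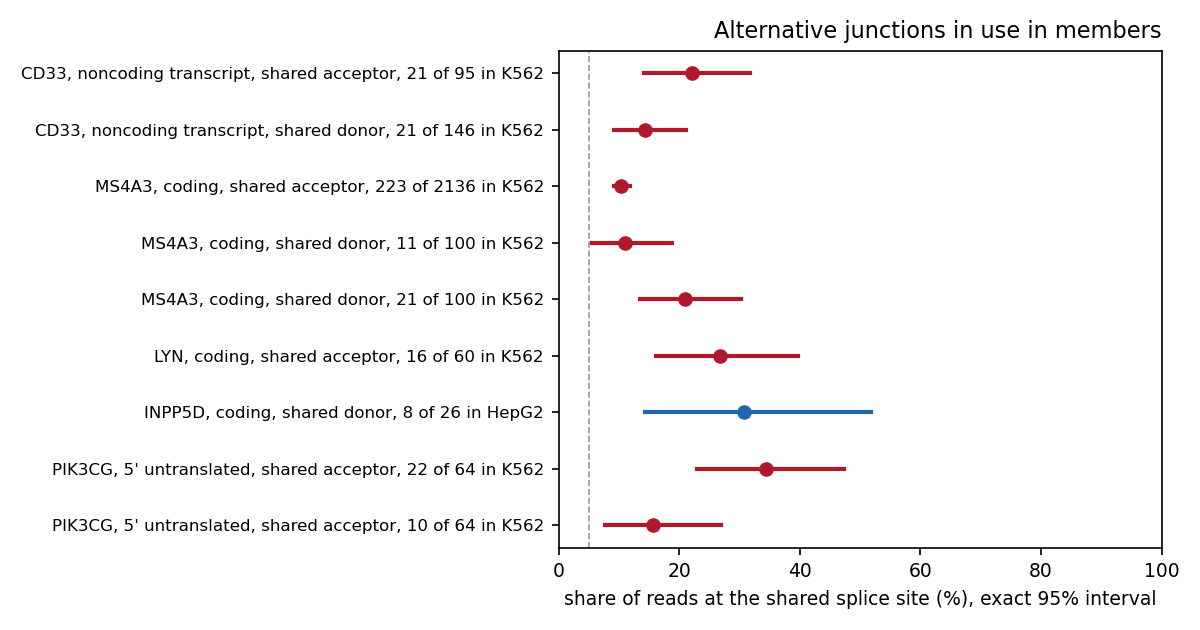
Share of the reads at a shared splice site (horizontal axis, percent) for each alternative junction in use in a member, with exact 95% intervals, red for K562 and blue for HepG2. The dashed line marks 5%, and the CD33 junction appears once for its acceptor and once for its donor. Shares run from 10.4% in MS4A3 to 34.4% in PIK3CG.

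Each blood cell form was set beside its closest relatives, since many of these families have members used in other tissues. Of the 45 related genes with enough reads, 13 were called for K562, 15 for HepG2 and 17 for neither, with a median log2 ratio of -0.18, where 16.8% and 21.9% of all genes tested were called for these lines. Of 23 families whose member was higher in K562, 11 had a relative higher in HepG2, 7 had one higher in K562, and 6 had no relative called, with the LYN family counted on both sides. Families held 1 to 6 relatives and the same count over other families was not made, so these counts are a description. VAV1 made up 88.4% of its family's level per coding junction in K562 and 0% in HepG2, where VAV2 (35 and 868 reads in K562 and HepG2) and VAV3 (0 and 374) were read. LCP1 made up 96.8% of the plastin level in K562 and 1.30% in HepG2, where PLS3 (2 and 2529 reads) took 79.0%. DOCK2 took 99.9% in K562, and DOCK1 (1 and 711) and DOCK5 (0 and 345) were the forms read in HepG2.

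Relatives with the opposite call were also found in other roles. Beside LYN, SRC had 16 and 896 reads, while FYN had 247 and 62 and was higher in K562 like LYN. Beside PTPRC, the receptor phosphatases PTPRK (35 and 2107) and PTPRF (261 and 1565) were higher in HepG2. PRKCB had PRKCA (371 and 1129) and PRKCD (131 and 794) as HepG2-high relatives. In the remaining families of this kind, the HepG2-high gene was WASL (126 and 573) beside WAS, SASH1 (8 and 239) beside SAMSN1, LAPTM4A (1071 and 12864) beside LAPTM5, FYB2 (0 and 20) beside FYB1 and TRPV4 (5 and 28) beside TRPV2. INPP5D showed the reverse: its relative INPPL1, known as SHIP2, was higher in K562, with 515 reads against 195.

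Other members were joined by relatives that moved with them. BTK was accompanied by TEC (489 and 2 reads) and BMX (39 and 0), IKZF1 by IKZF3 (316 and 0), IKZF4 (131 and 9) and IKZF2 (84 and 0), LYL1 by TAL1 (130 and 0) and RAC2 by RAC3 (249 and 31) and RHOG (37 and 6). CD53 was accompanied by CD81 (3148 and 0), PTPN7 by PTPRR (112 and 0) and RUNX1, itself not called, by RUNX2 (35 and 0). Among relatives called for neither line, RAC1 had 275 and 288 reads, CTTN beside HCLS1 3159 and 2563, ARHGDIA 2563 and 2920 and CORO1C 3161 and 2397. PTPN11 had 303 and 250, GRB2 beside GRAP2 812 and 1138, PIK3CB 408 and 279, and CD63 beside CD53 4799 and 5424. Not all uncalled relatives lay this near equality, as YES1 beside LYN had 237 and 484. ZAP70 beside SYK (0 and 4 reads) and PLEK2 beside PLEK (2 and 4) had too few reads to compare, and the relatives listed for LCP2, BCL11A, FLI1 and ETV6 had 0 in both tables.

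**Figure D4:**
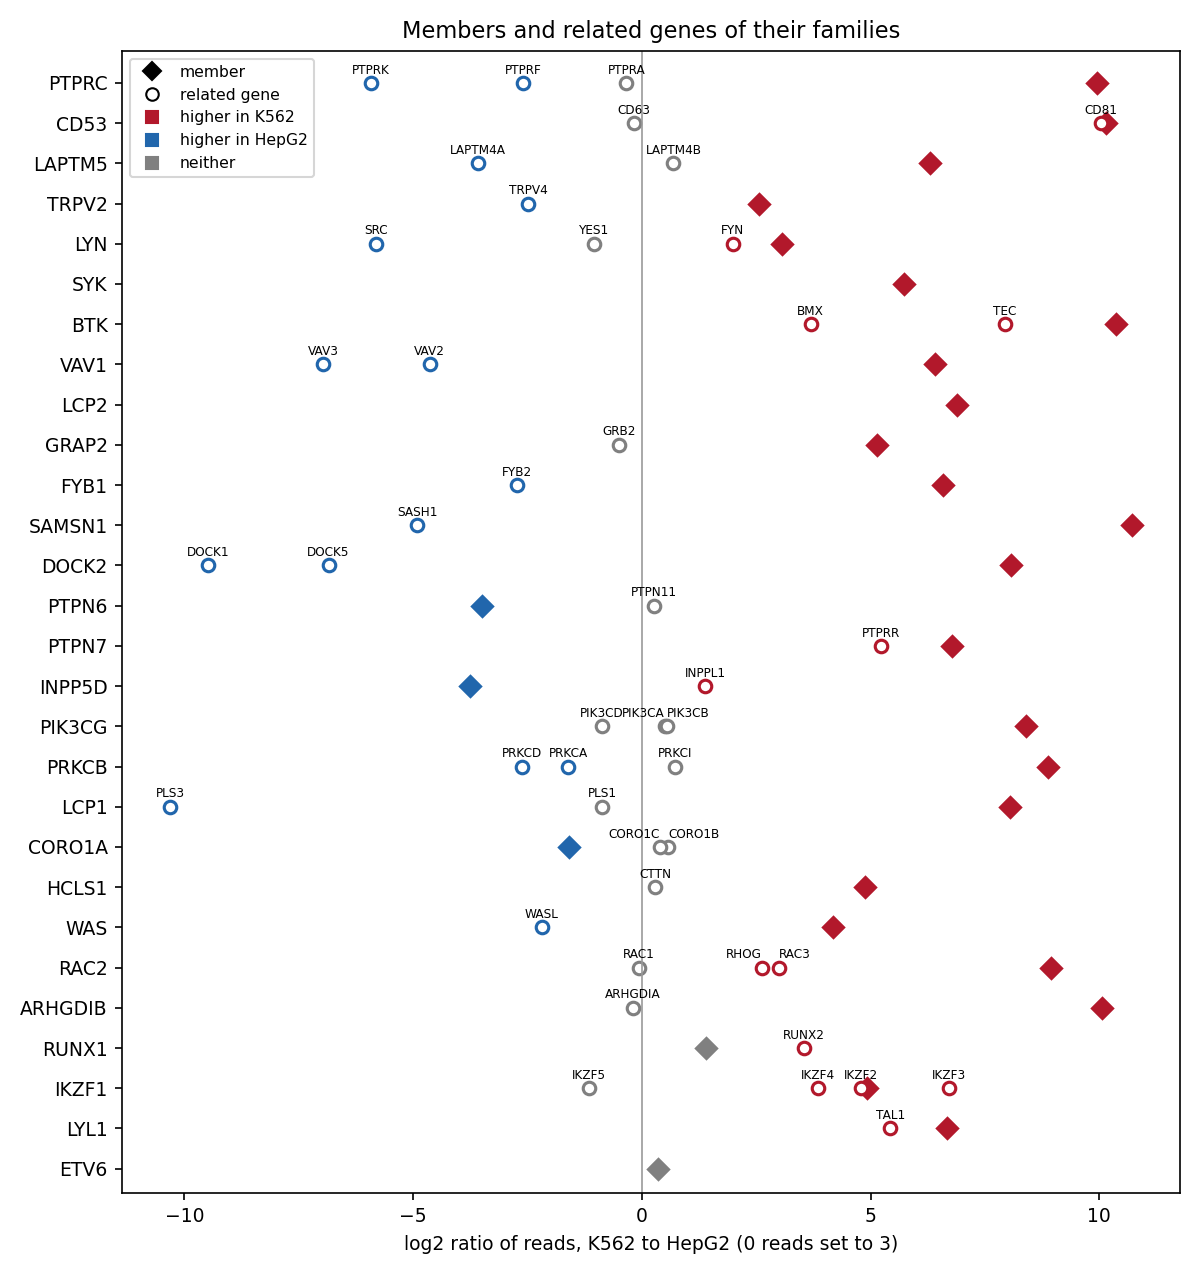
Log2 ratio of K562 to HepG2 reads (horizontal axis, counts of 0 set to 3 reads) for each compared member (diamonds) and its compared relatives (circles, named), with 1 family per line. Red marks a gene higher in K562, blue one higher in HepG2 and grey neither. Member diamonds lie mostly to the right, while relatives lie on both sides.

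Partners of the members in the same pathways were taken from lists of signalling proteins and of transcription factor cofactors. Of 30 signalling partners with enough reads, 10 were higher in K562, 8 in HepG2 and 12 neither, with a median log2 ratio of 0.04, against 16.8% and 21.9% of all genes. Among the partners called for K562, those with the most reads were NCKAP1L (1744 and 0 reads), the hematopoietic subunit of the WAVE actin complex downstream of RAC, SHC1 (1226 and 509), CD52 (486 and 0) and GAB2 (210 and 23). Among those called for HepG2, they were PLCG1 (471 and 1731), the lipase that SLP-76 recruits in T cells, ARPC3 (436 and 1166), CYFIP2 (2 and 476) and PIK3AP1 (17 and 272). Of 18 partners of the transcription factors, 9 were higher in K562, 1 (GFI1, 6 and 39 reads) in HepG2 and 8 neither, with a median of 1.08, beside the same 16.8% and 21.9%. MYB (3091 and 1), MTA2 (2730 and 1135), CBFA2T3 (1322 and 0) and GATA1 (776 and 0) led the K562 side. MYB and GATA1 are also among the identity genes that marked the K562 table above. The partner count is therefore not separate from that marker result. CBFB, the subunit that RUNX1 binds, had 1062 and 643 reads and was called for neither line.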

How the data were processed

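Footprints were isolated after nuclease digestion and ribosomal RNA was depleted, per the labels' protocols. The submitters' processing notes list cutadapt, Bowtie2 and STAR 2.6.0, with build GRCh38, but no roles. Which program counted the junctions, and on which annotation, was not given in the sources used. The values deposited by the authors are raw read counts per splice junction, all mapped and uniquely mapped, per the file headers, in 1 table per line that pools its 2 samples. Signal tracks were not used here.

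Junctions were matched to GENCODE release 29 introns (350016 of 350863). Unique reads at single-gene junctions were summed per gene and scaled with TMM (edgeR 4.0.16, R 4.3.3), which gave both tables nearly equal effective depths. Genes needed 20 reads over both tables. Without replicates no test across samples was run. Ratios, shares and levels carry exact binomial (Clopper-Pearson) or Poisson 95% intervals (scipy 1.17.1). The calculation of calls was tested on simulated data.

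All 34 members were to be named, with called relatives, the most-read relative of each family, and the 4 most-read called partners per direction; other genes named belong to the listed families, partners or markers, and the junctions shown as sequence were chosen after their values were seen. Members and lists were chosen with earlier results of these data known. Alternatives were other scalings (total reads, DESeq2 1.42.0), all mapped reads, read minimums, 99% intervals, multi-gene junctions, leaving out the most-read junction, coding junctions only, and, added after the data had been seen, junctions at least 60 bases into the coding sequence.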

Additional observations from a re-analysis of the deposited data

Results flagged for a closer look

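TRPV2 had 1 junction that was left out of its sum because the table also assigns it to a second gene, ENSG00000239203. It lies within the coding sequence of TRPV2, at chromosome 17, 16427548 to 16428316, and held 69 unique reads in K562 and 12 in HepG2. Both counts exceed the 3 reads used as a floor. The reads cannot be divided between the 2 genes, and the call of TRPV2 was the same when such junctions were counted for each of their genes.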

How the results depend on the processing

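Over the alternatives, 23 to 27 members were higher in K562 and 2 to 3 in HepG2. No paired analysis was possible because the 2 samples of each line are pooled in 1 table, and for the same reason no replicate could be left out. Scaling by total reads moved the median log2 ratio of all genes from -0.01 to 0.41 and the share of calls that went to K562 from 43.3% to 58.0%, so directions are relative to the TMM scale. The member median was then 7.01, and 6.21 without the most-read junction of each gene, against 6.59. These medians rank folds set by the floor together with ratios, so their sizes are rough. Without that junction the log2 ratio of HHEX reversed to -0.35 and that of ETV6 to -0.08. Pathway partners higher in HepG2 fell from 9 to 5 with a minimum of 100 reads, where fewer genes were tested, and to 5 without the most-read junction. Alternative junctions in use in HepG2 went from 1 to 0 at a site minimum of 40 reads. The member share in 5′ untranslated junctions in K562 was 27.5% with untranslated annotation first, against 14.7%. CORO1A and RUNX1 changed call, as given with them. The level of HHEX in K562 was 6.12 as a median over its coding junctions in place of 54.1 as a mean. Depth limits the low genes most: with 0 HepG2 reads, folds rest on the floor, and neither spread between cultures nor footprints within single exons were measured.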
